A study of Mus musculus with 6 samples.

Results

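The apoptosis and necroptosis machinery was described here by 45 genes, which were picked by symbol from the BCL2 family, the caspases and the death-receptor and necroptosis proteins, with genes linked to them such as those of p53, DNA breakdown and repair, and death-linked kinases and autophagy. All 45 were present among the 23420 genes of the uterine RNA-seq table. RNA came from uteri of 8 week old C57BL/6J females on day 4.5 of pseudopregnancy, after mating with vasectomized males. The control females were *Foxo1f/f*, homozygous for a floxed allele of *Foxo1* and without Cre. The *Foxo1d/d* females were *PgrCre/+ Foxo1f/f*, with the same floxed alleles and 1 copy of Cre recombinase at the *Pgr* locus. Each genotype had 3 libraries, and each library came from the pooled RNA of 2 mice. Cre at *Pgr* acts in cells that express the progesterone receptor, for which the paper names the uterus, the pituitary, the ovary and the mammary gland. In the paper's staining of pregnant *Foxo1d/d* uteri, FOXO1 was left only in blood vessels. The paper places the uterine ablation in epithelium and stroma. The floxed allele loses the second major coding exon, so reads from the rest of the *Foxo1* transcript can still be counted.

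The values analysed were the authors' mean counts per gene and genotype, and no counts of single libraries were analysed here. No spread between pools can therefore be given, no test was possible, and no p-value is reported. Pairs of mean counts are given in the order *Foxo1f/f*, *Foxo1d/d*. Gene counts per library averaged 26125014 for *Foxo1f/f* and 27257963 for *Foxo1d/d*. A pseudocount of 1 was added to each mean count, the sum was scaled to its genotype's total, and the scaled values were compared as a log2 ratio, positive where *Foxo1d/d* was higher. A gene was called higher or lower where the ratio reached 1.5-fold and its mean count over both genotypes was at least 10. Intervals in parentheses are 95% Wilson intervals of the log2 ratio from the summed counts of the 3 libraries. They cover counting error only, not the variation between mice or pools.

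Apoptosis is a form of cell death in which caspases, a family of proteases, take a cell apart from within. In the mitochondrial route, BH3-only proteins relieve BAX and BAK1 of the restraint of pro-survival BCL2 proteins. The pores they form release cytochrome c, which assembles with APAF1 into the apoptosome and activates caspase-9. In the death-receptor route, FAS and FADD recruit caspase-8, and where caspase-8 is blocked, RIPK1, RIPK3 and MLKL can rupture the membrane instead, which is necroptosis. In the mouse uterus the luminal epithelium around an attached blastocyst is lost at implantation. The comparison asks how transcripts of this machinery stood in uteri after deletion of *Foxo1* by Cre at *Pgr*. Most of these proteins are regulated after translation, by cleavage, binding or phosphorylation, which transcript counts do not measure.

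The deleted gene was examined first as a check of the labels. *Foxo1* averaged 3941 and 1456 counts, which was 2.82-fold lower, at a log2 ratio of -1.50 (-1.55 to -1.45). Its direction matched the labels of the genotypes, and its counts include any from cells without Cre and from the transcript outside the deleted exon. The *Pgr* transcript, from the locus that carries Cre, averaged 5469 and 6551 counts, at a log2 ratio of 0.20.

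Of the 45 members, 44 had a mean count of at least 10. None of the 44 reached 1.5-fold on the higher side, where 5.43% of the 15696 genes with that many counts were. Among the 44, 3 were at least 1.5-fold lower, a share of 6.82%, beside 3.51% of all 15696 genes. The 3 were *Hrk*, *Dram1* and *Map3k5*. Mean counts of the 44 ran from 71.8 for *Endog* to 7703 for *Mcl1*. Within that range of counts, chosen after the data were seen, 12955 genes had ratios, of which 3.50% were higher and 2.42% lower by the same rule. No test of these shares was made, and with 3 genes the difference from the background is not a result about the list.

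The median log2 ratio of the 44 members was 0.0027, beside 0.025 over the 15696 genes. Their ratios lay on both sides of 0, with 23 above and 21 below, where 55.1% of the 15696 genes were above 0. Centred on the median gene, *Diablo*, *Fas*, *Ripk1*, *Dffb* and *Mdm2* moved below 0 and the split was 18 above and 26 below, and with scaling by the upper quartile it was 21 above and 23 below. The median absolute log2 ratio of the members was 0.096, while that of all 15696 genes was 0.14 and that of the genes in the members' range of counts 0.13. A counting interval that excluded a ratio of 1 was found for 28 of the 44, or 63.6%, and for 64.0% of the 15696 genes, so at this depth small ratios exceed counting error throughout the table. Together the members held 2845 CPM (counts per 1000000 counts of a genotype) in the controls and 2765 CPM after deletion.

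**Figure D1:**
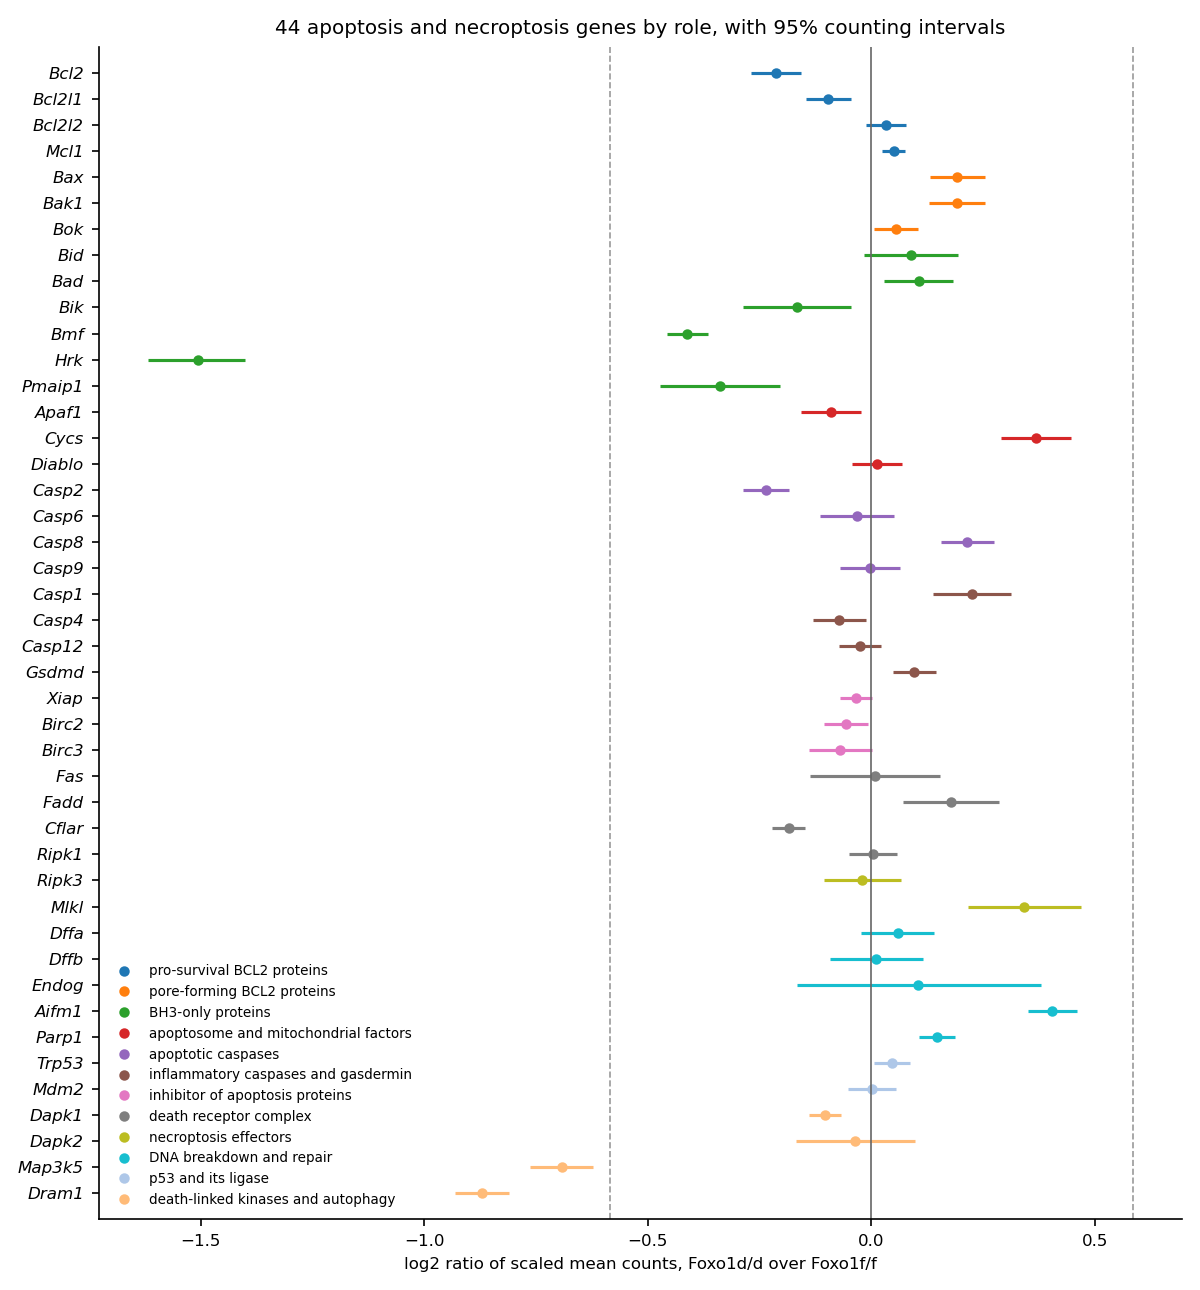
Log2 ratio of scaled mean counts, *Foxo1d/d* over *Foxo1f/f*, on the horizontal axis for the 44 members with a mean count of at least 10, grouped and coloured by role. Points are ratios of the means of 3 libraries per genotype, bars are 95% counting intervals and dashed lines mark 1.5-fold. *Hrk*, *Dram1* and *Map3k5* lie past the line on the lower side, at -1.51, -0.87 and -0.69, and no member lies past it on the higher side.

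*Hrk* encodes harakiri, a BH3-only protein that binds BCL2 and BCL-xL and is best known from neurons deprived of growth factors. It averaged 834 and 306 counts, so it was 2.85-fold lower, with a log2 ratio of -1.51 (-1.62 to -1.40). This ratio was close in size to that of *Foxo1* itself, but no link between the 2 was tested. Of all 15696 genes, 1.40% were at least 2-fold lower. *Dram1* encodes a lysosomal membrane protein that p53 induces and that links p53 to autophagy. It averaged 1966 and 1122 counts, was 1.83-fold lower and had a log2 ratio of -0.87 (-0.93 to -0.81). *Map3k5* encodes ASK1, a kinase that activates the JNK and p38 pathways under oxidative stress. With mean counts of 1394 and 900.0 it was 1.62-fold lower, at a log2 ratio of -0.69 (-0.76 to -0.62), and of the called members it lay nearest to the 1.5-fold line. The whole counting interval of each of these 3 genes lay past 1.5-fold. In RNA of whole uteri, fewer cells of a type and less RNA per cell cannot be told apart.

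On the uncalled side, the member nearest to the line was *Bmf*, a BH3-only protein held at the cytoskeleton in healthy cells. *Bmf* averaged 2957 and 2320 counts, 1.33-fold lower at a log2 ratio of -0.41 (-0.46 to -0.37). Among members above 0 the nearest was *Aifm1*, which encodes apoptosis-inducing factor, a mitochondrial flavoprotein that can move to the nucleus in dying cells. Its mean counts were 1504 and 2078, 1.32-fold higher at a log2 ratio of 0.40 (0.35 to 0.46).

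The 3 lower members act at different steps. *Hrk* lies on chromosome 5, and *Dram1* and *Map3k5* lie on chromosome 10 together with *Apaf1*, *Casp14* and *Mdm2*. Their RefSeq promoters, from 250 bases before to 50 bases after the gene start on GRCm38.p6, are shown because these genes carry the calls among the members. The deposited table itself holds no coordinates. The sequences are given 5′ to 3′ on the strand of the gene, for *Hrk* at chr5:118169514-118169813 on the plus strand, *Dram1* at chr10:88357026-88357325 on the minus strand and *Map3k5* at chr10:19934276-19934575 on the plus strand.
*Hrk*: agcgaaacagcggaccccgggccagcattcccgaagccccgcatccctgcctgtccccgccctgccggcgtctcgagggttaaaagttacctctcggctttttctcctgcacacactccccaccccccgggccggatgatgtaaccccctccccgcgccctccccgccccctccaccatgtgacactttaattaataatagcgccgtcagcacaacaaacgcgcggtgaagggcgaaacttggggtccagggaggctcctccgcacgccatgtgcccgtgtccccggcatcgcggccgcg
*Dram1*: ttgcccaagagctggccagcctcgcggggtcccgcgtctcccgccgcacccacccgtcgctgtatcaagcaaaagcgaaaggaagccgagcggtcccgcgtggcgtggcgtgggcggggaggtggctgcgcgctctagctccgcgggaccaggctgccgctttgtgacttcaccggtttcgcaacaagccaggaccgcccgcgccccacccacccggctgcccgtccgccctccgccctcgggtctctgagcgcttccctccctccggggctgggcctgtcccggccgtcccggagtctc
*Map3k5*: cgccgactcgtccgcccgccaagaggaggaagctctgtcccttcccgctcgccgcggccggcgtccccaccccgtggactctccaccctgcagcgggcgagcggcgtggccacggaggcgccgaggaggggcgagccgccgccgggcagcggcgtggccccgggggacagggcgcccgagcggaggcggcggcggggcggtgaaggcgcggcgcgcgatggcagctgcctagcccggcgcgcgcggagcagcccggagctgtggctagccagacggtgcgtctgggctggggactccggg

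G and C made up 65.7% of the *Hrk* promoter, 72.7% of the *Dram1* promoter and 79.7% of the *Map3k5* promoter. FOXO proteins bind DNA at words such as GTAAACA, which reads TGTTTAC on the opposite strand. That word was searched on both strands and was found in none of these 3 windows, which says only that the letters are not in them. Over all 32851 promoters of the RefSeq table, 1199 held it, or 3.65%. Promoters were given for 42 of the 45 members, 52 promoters in all, and *Pmaip1*, *Gsdmd* and *Bik* were not among them. The word was found for 2 of the 42 genes, *Casp4* and *Mdm2*, and in 3 of the 52 promoters. By gene these are 4.76% of the members and 4.05% of all 27025 genes with a promoter. Of the other pathway genes described below, 3 of 40 held it, *Bcl2l11*, *Bbc3* and *Axl*, and of the p53 response genes 2 of 12, *Sesn1* and *Eda2r*. A match is a description of the sequence, and binding of FOXO1 was not measured here. For both members, and for *Bcl2l11* and *Sesn1* as examples from the other lists, 30 bases around the word are shown with the word in capitals, from chr9:5308629-5308658 on the plus strand for *Casp4*, chr10:117710893-117710922 on the minus strand for *Mdm2*, chr2:128125800-128125829 on the plus strand for *Bcl2l11* and chr10:41810585-41810614 on the plus strand for *Sesn1*.
*Casp4*: aaaatgcaaagGTAAACAacttcaattttt
*Mdm2*: ggtttcgagcgGTAAACAcaaccgcgcggc
*Bcl2l11*: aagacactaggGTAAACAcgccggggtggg
*Sesn1*: gaaccttctacTGTTTACcagccttttggg

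The word begins 153 bases before the start of *Mdm2* and 227 bases before a start of *Bcl2l11*. At *Sesn1* it lies on the opposite strand, from base 23 of the transcribed part. The log2 ratios of the genes with the word differed in size, at -0.07 for *Casp4*, 0.0017 for *Mdm2*, -0.30 for *Bcl2l11*, -0.65 for *Sesn1*, -0.24 for *Bbc3*, -0.30 for *Axl* and -0.17 for *Eda2r*.

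The BCL2 family holds opposed roles. Of the 4 pro-survival genes none was called. *Mcl1*, whose short-lived protein restrains BAK1, had the highest level per length of all members in both genotypes, 82.9 in the controls and 85.9 after deletion, as CPM per kilobase of exon. Its mean counts were 7406 and 8000.3, a 1.04-fold difference with a log2 ratio of 0.05 (0.02 to 0.08). *Bcl2l1*, which encodes BCL-xL, and *Bcl2l2*, which encodes BCL-W, had log2 ratios of -0.10 and 0.03. *Bcl2* itself had the lowest level of the 4, at 7.69 and 6.63, and a log2 ratio of -0.21.

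All 3 pore-forming genes had ratios above 0, and none reached 1.5-fold. *Bax*, with the highest level per length among them, averaged 1281 and 1527 counts, 1.14-fold higher at a log2 ratio of 0.19 (0.13 to 0.25). *Bak1* had the same log2 ratio of 0.19 to the printed digits, and *Bok*, an effector that acts with little restraint from BCL2, was at 0.06. The counts of *Bak1* are uncertain where it overlaps *Ggnbp1*, as are those of *Bcl2l1* where it overlaps *Cox4i2*, since the use of strand in the counting is not given in the sources used here.

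The level per length of *Bax*, *Bak1* and *Bok* together was set against that of *Bcl2*, *Bcl2l1*, *Bcl2l2* and *Mcl1*. This ratio of levels was 0.871 in the controls and 0.955 after deletion, a log2 difference of 0.13, with a counting interval from 0.09 to 0.17. Without *Mcl1* and *Bax* the difference was 0.15, and with counts not divided by length it was 0.14. In these mean counts, transcripts of the pore formers stood slightly higher relative to those of the pro-survival genes in *Foxo1d/d*. The difference was less than the 1.5-fold used for single genes, whose median absolute log2 ratio over the 15696 genes was 0.14. Its interval covers counting error only, and the doubts about *Bak1* and *Bcl2l1* counts apply to it too.

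BH3-only genes, whose products start the mitochondrial route, were the role with the lowest summed counts relative to *Foxo1f/f* among those of the BCL2 family. They held 222 CPM in the controls and 173 after deletion, and 4 of the 6 had ratios below 0. Of these sums *Hrk* held 31.9 and 11.2 CPM and *Bmf* 113 and 85.1, so most of the difference lay in *Hrk* and *Bmf*. Besides *Hrk*, at levels of 5.93 and 2.08 per length, and *Bmf*, with the highest level per length of the group in *Foxo1f/f* at 23.4, the lower ones were *Pmaip1* and *Bik*. *Pmaip1* encodes NOXA, which targets MCL1, and had a log2 ratio of -0.34, while *Bik*, a BH3-only protein of the endoplasmic reticulum, was at -0.17. *Bid*, which caspase-8 cleaves to link both routes, and *Bad*, which growth factor signaling keeps phosphorylated, had log2 ratios of 0.09 and 0.11. In *Foxo1d/d* the level of *Bad*, 22.3, was above that of *Bmf*, 17.6. *Bad* overlaps *Gpr137*, so its counts are uncertain in the same way as those of *Bak1*.

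Downstream of the mitochondrion, *Diablo* encodes SMAC, which frees caspases from their inhibitors, and it had the highest level per length of the 3 factors at this step. It averaged 1670.3 and 1759 counts, a 1.01-fold difference at a log2 ratio of 0.01 (-0.04 to 0.07). *Cycs*, the gene of somatic cytochrome c, had a log2 ratio of 0.37 with mean counts of 764 and 1028. *Cycs* has many processed copies in the genome that can share its reads, so its counts are uncertain. *Apaf1* was at -0.09 and overlaps *Ikbip*, which leaves the same doubt.

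None of the 4 apoptotic caspases reached 1.5-fold. *Casp2*, an initiator that responds to stress, had the highest level per length of them in *Foxo1f/f*. It averaged 2167 and 1920.3 counts, 1.18-fold lower at a log2 ratio of -0.24 (-0.29 to -0.18). *Casp8*, the initiator of the death-receptor route, lay on the other side of 0 at 0.21. *Casp9*, the caspase of the apoptosome, was at -0.0019, and *Casp6*, which cleaves lamins, was at -0.03. The 3 members for inhibitor of apoptosis proteins, which hold caspases in check, ranged from -0.07 for *Birc3* to -0.03 for *Xiap*. *Birc2*, which encodes cIAP1 and had the highest level per length of these, averaged 2203 and 2211 counts, 1.04-fold lower at a log2 ratio of -0.06 (-0.11 to -0.01). *Birc2* and *Birc3* lie side by side on chromosome 9, 6 and 5 genes away from *Pgr* in the RefSeq order, so they share a chromosome region with the Cre insertion, and neither was called.

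In the death-receptor complex, *Cflar* encodes FLIP, which resembles caspase-8 without its activity and blocks it. *Cflar* had the highest level per length of the 4 genes, averaging 4299.7 and 3947 counts, 1.14-fold lower at a log2 ratio of -0.18 (-0.22 to -0.15). The adaptor gene *Fadd* was at 0.18, the receptor gene *Fas* at 0.0082 and the kinase gene *Ripk1* at 0.0037. The *Ripk1* locus overlaps *Serpinb6a*, which had more counts than *Ripk1* in both genotypes. The signs within the complex thus differed, and all 4 genes were within 1.5-fold.

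The 2 effectors of necroptosis differed from each other. *Ripk3*, the kinase that phosphorylates MLKL, averaged 702 and 723 counts, 1.01-fold lower at a log2 ratio of -0.02 (-0.11 to 0.07), and it had the higher level per length of the pair. *Mlkl*, the membrane-rupturing protein, averaged 295 and 390.0 counts, at a log2 ratio of 0.34, within 1.5-fold.

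Pyroptosis is an inflammatory cell death in which caspase-1 or caspase-11 cleaves gasdermin D, whose fragment opens the membrane. *Gsdmd* had the highest level per length of its group, averaging 2180.0 and 2432 counts, 1.07-fold higher at a log2 ratio of 0.10 (0.05 to 0.14). *Casp1* was at 0.23, *Casp4*, the mouse caspase-11 gene, at -0.07 and *Casp12*, an inflammatory caspase of the endoplasmic reticulum, at -0.03. These 3 caspase genes are neighbours on chromosome 9. *Casp14*, a caspase of cornifying keratinocytes, summed to 0 counts in the controls and 2 after deletion, at or under a floor of 3 counts in both, so no fold is given and it was not detectable at this depth.

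All 5 genes of DNA breakdown and repair had ratios above 0, although that of *Dffb* was below 0 when centred on the median gene. The highest was that of *Aifm1*. *Parp1*, a DNA-break sensor that caspases cleave, had the highest level per length of the group in both genotypes, averaging 3087 and 3568 counts, 1.11-fold higher at a log2 ratio of 0.15 (0.11 to 0.19). *Dffa*, the inhibitor and chaperone of the caspase-activated DNase, was at 0.06, *Dffb*, the DNase itself, at 0.01 and *Endog*, a mitochondrial nuclease with the fewest counts of the 44, at 0.10. *Trp53*, which encodes p53, had the second highest level per length of all members, at 63.8 and 65.9. Its mean counts were 3113 and 3354, 1.03-fold higher at a log2 ratio of 0.05 (0.01 to 0.09). *Mdm2*, the ubiquitin ligase that degrades p53, was at 0.0017.

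The group of death-linked kinases and autophagy held 2 of the 3 calls, *Map3k5* and *Dram1*. *Dapk1*, a calmodulin-regulated kinase, had the highest level per length of the group in *Foxo1f/f*, 27.0, followed by *Dram1* at 26.8. *Dapk1* averaged 4195 and 4072 counts, 1.07-fold lower at a log2 ratio of -0.10 (-0.14 to -0.07), and the related *Dapk2* was at -0.04. In *Foxo1d/d* the level of *Dram1* was 14.7 while that of *Dapk1* was 25.1.

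**Figure D2:**
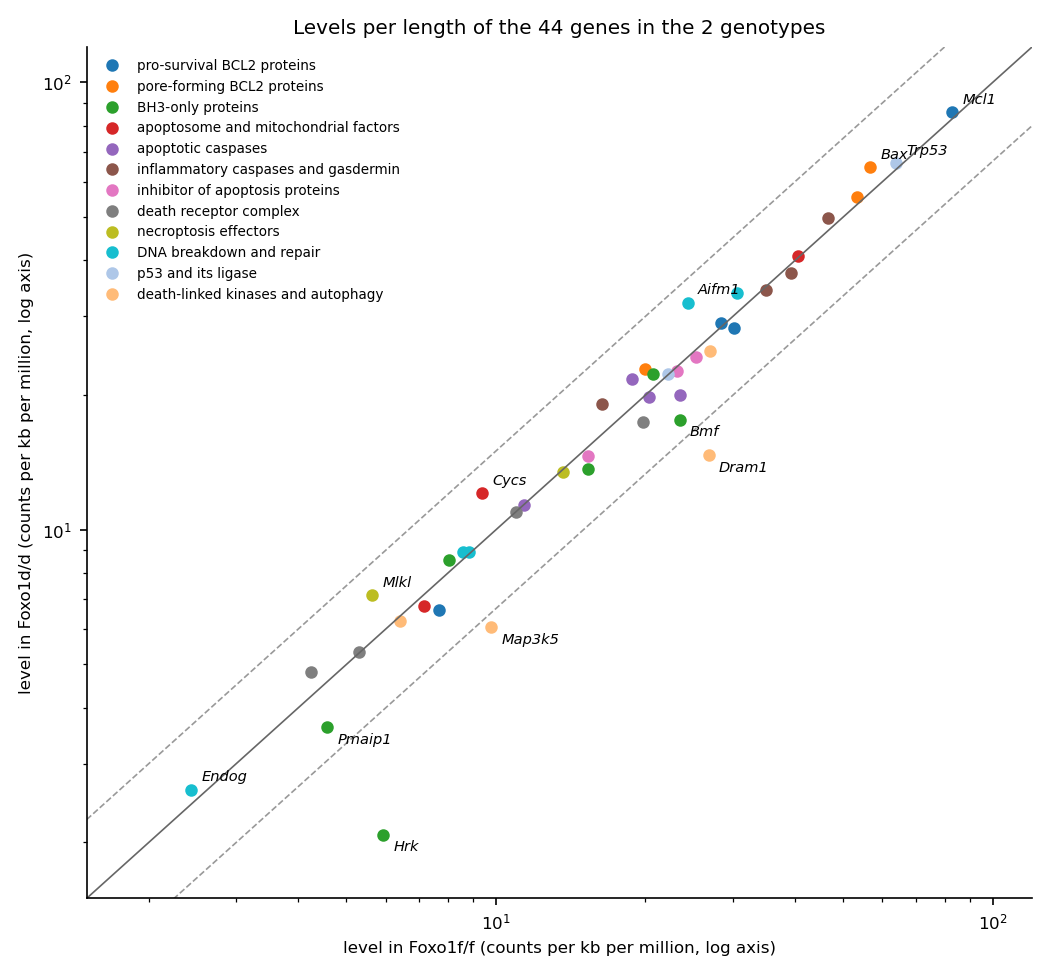
Level of each of the 44 members per length, in CPM per kilobase of exon, in *Foxo1f/f* on the horizontal and *Foxo1d/d* on the vertical log axis, coloured by role. Each point is 1 gene, from the means of 3 libraries per genotype, the solid line marks equal levels and the dashed lines 1.5-fold. Most genes lie along the line of equality from *Endog*, at 2.44 in *Foxo1f/f*, to *Mcl1*, at 82.9, and *Hrk*, *Map3k5* and *Dram1* lie under the lower dashed line.

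Levels per length among the members thus spanned from 2.44 to 82.9 in *Foxo1f/f*, with *Casp14* at 0. By level, 17 of the 45 members held the same rank in both genotypes and 9 differed by more than 3 ranks. The 9 highest, *Mcl1*, *Trp53*, *Bax*, *Bok*, *Gsdmd*, *Diablo*, *Casp4*, *Casp12* and *Parp1*, were among those with the same rank.

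The list of other genes of these pathways held 57 genes that were in the table, of which 53 had a mean count of at least 10. Of these, 8 (15.1%) were higher and 1 (1.89%) was lower by the 1.5-fold rule, beside 5.43% and 3.51% of all 15696 genes. The higher genes include *Naip1*, *Naip5* and *Naip6*, neighbours that can share reads, and *Timd4*, *Tnf* and *Il1b*, with low counts. The shares were not tested. The BH3-only genes outside the members, *Bcl2l11*, which encodes BIM, and *Bbc3*, which encodes PUMA, had log2 ratios of -0.30 (-0.36 to -0.25) and -0.24 (-0.37 to -0.11). Both lay below 0, as did 4 of the 6 BH3-only members. The death ligand genes *Fasl* and *Tnfsf10*, which encodes TRAIL, were at 0.28 and 0.23.

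The highest ratios among the 53 were those of *Naip1* and *Naip6*. NAIP proteins sense bacterial flagellin and secretion systems and feed an inflammasome. *Naip1* averaged 73.0 and 364 counts, 4.77-fold higher at a log2 ratio of 2.24 (2.05 to 2.46). *Naip6* was at 1.54 and *Naip5* at 0.86. These genes are near-identical neighbours whose reads can be shared, so the split of counts among them is uncertain. *Timd4*, a receptor for phosphatidylserine on dead cells, averaged 21.0 and 51.7 counts, at a log2 ratio of 1.20 (0.82 to 1.66). *Tnf*, the ligand that acts upstream of *Ripk1*, averaged 33.3 and 75.0 counts, at a log2 ratio of 1.09 (0.77 to 1.45). *Il1b* and *Nlrp3*, a substrate and a sensor of the caspase-1 pathway, were at 0.77 and 0.70, and *Bcl2l14*, a BCL2 relative, was at 0.69. The lower gene was *Faim2*, an inhibitor of FAS signaling, which averaged 52.7 and 33.3 counts, at a log2 ratio of -0.71 (-1.08 to -0.36). Counts of *Timd4*, *Tnf*, *Il1b* and *Faim2* were low, and the intervals of *Il1b*, *Nlrp3*, *Bcl2l14* and *Faim2* reach inside 1.5-fold.

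Genes that p53 induces were listed beside *Trp53* together with its relatives *Trp63* and *Trp73*, and 15 of the 16 in the table had a mean count of at least 10. None was at least 1.5-fold higher and 2 (13.3%) were lower, beside the same 5.43% and 3.51%. Of the 15, 8 had ratios above 0 and 7 below, with a median log2 ratio of 0.084. As for the members, the shares of these lists were not tested. *Trp53inp1*, a stress-induced regulator of p53 and autophagy, averaged 5620.3 and 3697 counts, for a log2 ratio of -0.67 (-0.70 to -0.63). *Sesn1*, which restrains mTORC1 under stress, averaged 4677 and 3112 counts, for a log2 ratio of -0.65 (-0.69 to -0.61). *Cdkn1a*, the gene of the cell cycle inhibitor p21, was at -0.03.

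**Figure D3:**
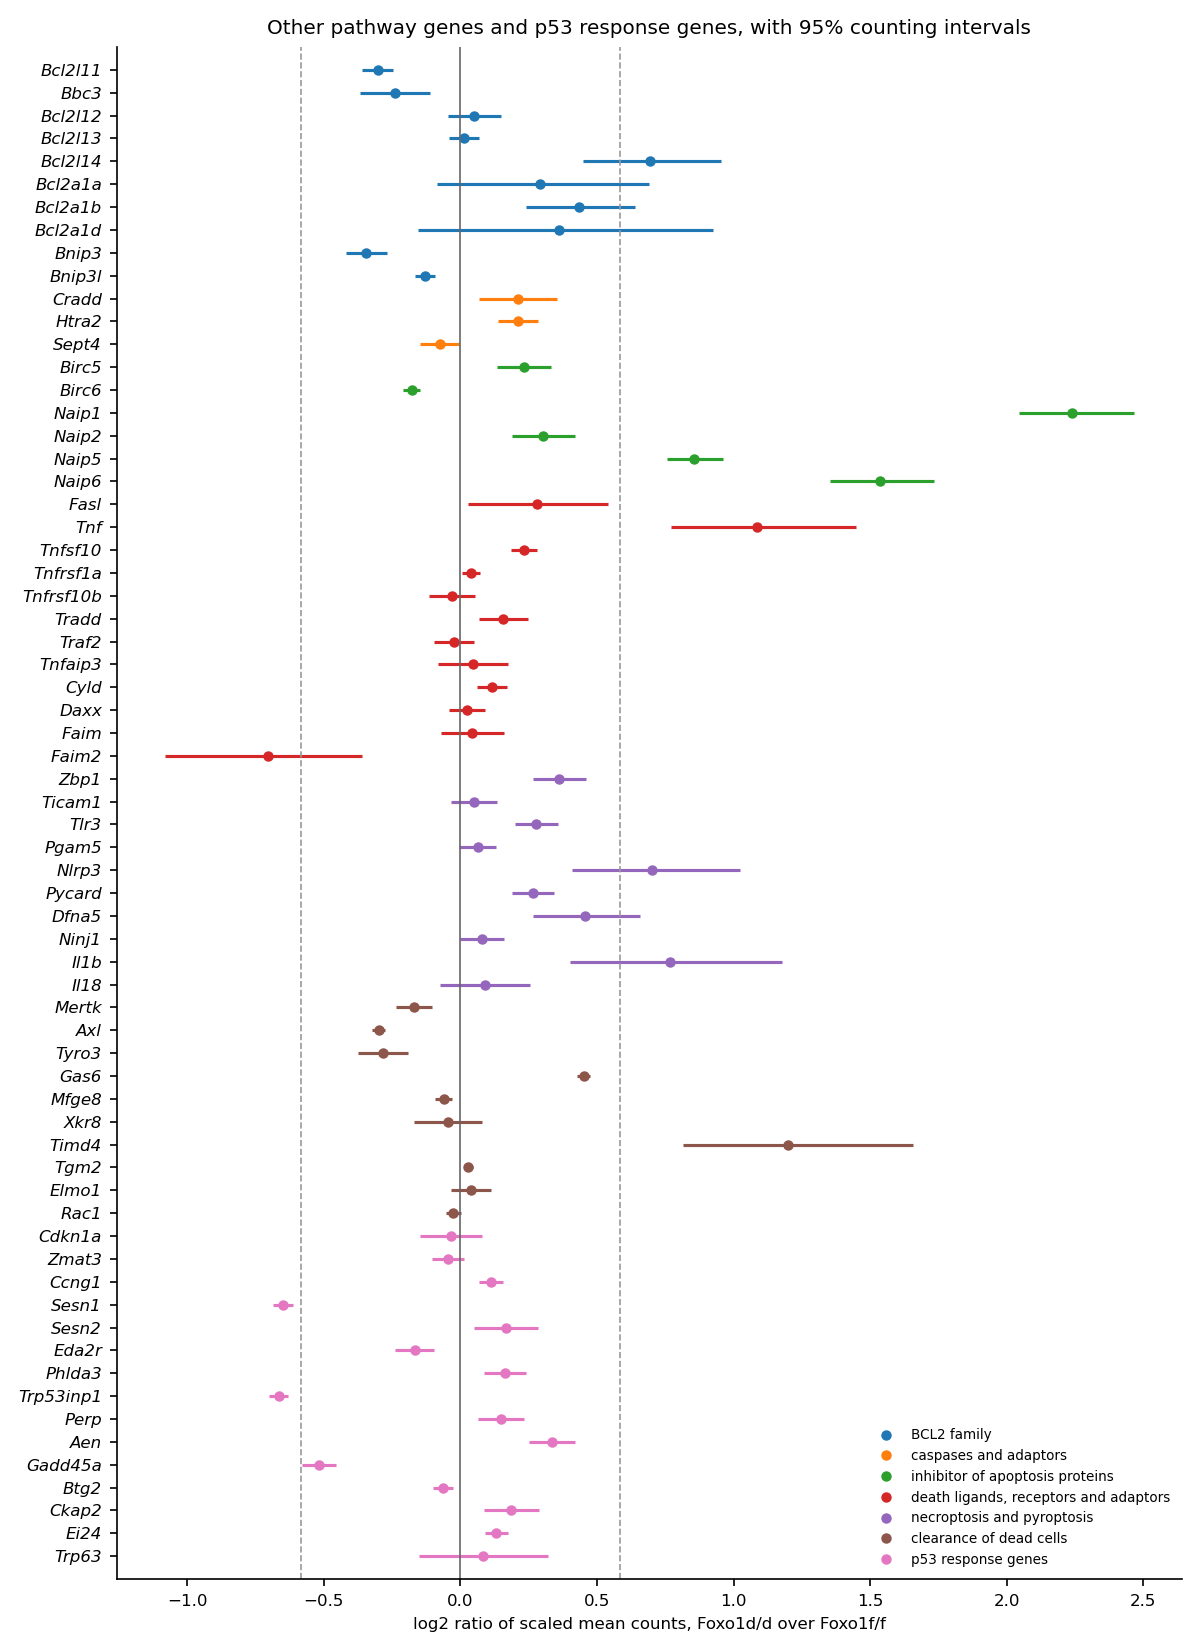
Log2 ratio of scaled mean counts, *Foxo1d/d* over *Foxo1f/f*, for 51 of the 53 other pathway genes and 15 p53 response genes that passed the count filter, coloured by group. Points are ratios of the means of 3 libraries per genotype, bars 95% counting intervals and dashed lines 1.5-fold. *Naip1*, *Naip6* and *Timd4* have the highest ratios, at 2.24, 1.54 and 1.20, and *Trp53inp1* and *Sesn1* lie past the lower line with *Faim2*.

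Markers of the cell types of the uterus were read beside these results, and all main compartments of the labelled tissue were detected. The most abundant gene of a list is the one with the highest mean count over both genotypes. In *Foxo1f/f* alone it was *Gzmb* for T and NK cells, *Wnt7b* for luminal epithelium and *Trp63* for squamous epithelium, and in *Foxo1d/d* alone it was *Lif* for glands. All 8 leukocyte markers had ratios above 0, with a median of 0.39 and a summed level of 423 CPM in the controls and 553 after deletion. The most abundant of them was *Ptprc*, at mean counts of 2556 and 3515. The 8 macrophage markers were also all above 0, with 751 and 891 CPM and *Lyz2* as the most abundant. Of the 9 T and NK cell markers, 8 were above 0, with 122 and 159 CPM and *Ncr1* as the most abundant. Neutrophil markers summed to 13.7 and 19.5 CPM, led by *Csf3r*, and B cell markers to 3.15 and 5.55, led by *Cd79b*. Interferon response genes held 777 and 892 CPM, 13 of 18 above 0 (12 of 18 when centred on the median gene). These values stand beside the ratios above 0 of *Mlkl*, *Casp1*, *Casp8*, *Tnf*, *Il1b*, *Nlrp3*, *Naip1* and *Timd4*, several of which leukocytes express. Those genes were picked by their ratios, and 21 of the 44 members were below 0. Among the latter, *Casp4* was at -0.07, *Ripk3* at -0.02, *Birc3* at -0.07 and *Cflar* at -0.18. The part of the marker differences in any of these ratios was not tested.

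Smooth muscle and endothelial markers lay on the other side of 0, all 7 in each list. They summed to 7088 and 5727 CPM for muscle, led by *Myh11*, and to 1641 and 1382 for endothelium, led by *Pecam1*. Stromal markers, led by *Col3a1*, held 12324 and 12071 CPM with a median ratio of -0.06. General epithelial markers, led by *Cdh1*, held 894 and 1094, with 11 of 12 above 0. Markers within the epithelium diverged. Those of luminal epithelium, led by *Calb1*, held 184 and 347 CPM, 5 of 7 above 0, and those of glands, led by *Prss29*, held 886 and 108, 2 of 6 above 0. The gland markers differed from each other, with 4 lower by the 1.5-fold rule, among them *Prss29*, 1 higher, *Lif* at 0.99, and *Foxa2* at 0.04, so the summed value does not measure the amount of glands. Stratified squamous markers, led by *Krt5*, held 9.94 and 24.5, 3 higher and 1 lower by the 1.5-fold rule, with *Sprr1b* at 0 in both genotypes. Of the red cell genes *Alas2* was the most abundant and was called higher, at a log2 ratio of 1.39 (1.24 to 1.55), and the 4 haemoglobin genes were listed at 0 in both genotypes. The part of these differences in the lower values of *Hrk*, *Dram1* and *Map3k5* was not tested.

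**Figure D4:**
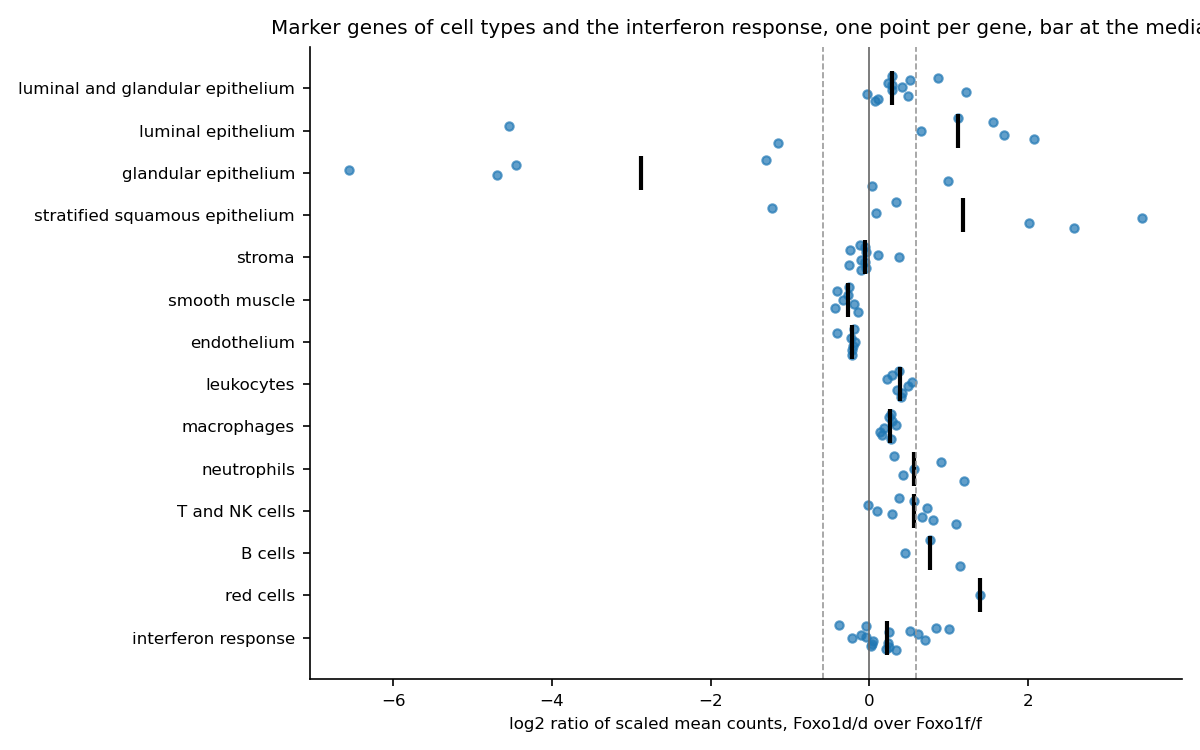
Log2 ratio of scaled mean counts, *Foxo1d/d* over *Foxo1f/f*, for marker genes that passed the count filter, 1 point per gene and 1 row per list, with a black bar at the median of each list and dashed lines at 1.5-fold. Leukocyte markers lie above 0 with a median of 0.39, smooth muscle and endothelial markers lie below 0 with medians of -0.27 and -0.22, and glandular markers have a median of -2.88.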

How the data were processed

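The authors trimmed paired-end reads, used STAR for mapping, Picard against duplicates, HTSeq for counts on RefSeq genes and edgeR to compare genotypes, with no versions given in the sources used here. The paper names mm10 and the submitters' processing notes name mm9, and the deposited table has no coordinates. It holds the authors' mean counts per genotype, treated as estimated counts, since all of them are whole numbers after multiplication by 3 (to within 1e-06). The authors also deposited their signed fold change as a score, an average log2 CPM, a p-value and an FDR, none of which was used here. The number of other columns with single-sample values left out was 0.

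A test across genes with edgeR was planned only for counts of single libraries and was not made. Log2 ratios used a pseudocount of 1, and folds of single genes none. Levels per length are CPM per kilobase, and exon lengths were unions of GENCODE vM21 exons of RefSeq transcripts, found for all 45 members. Promoters came from RefSeq on GRCm38.p6. The members and gene lists were chosen with earlier results of these data known. All members are named, with full values for those called, for the highest level per length of each role, and for those nearest to 1.5-fold. In the other lists, the called genes and *Bcl2l11*, *Bbc3*, *Fasl* and *Tnfsf10* are named, and of each marker list the most abundant gene and markers at 0. Some genes that this rule names are not reported here. *Cdkn1a*, *Pgr*, *Axl*, *Eda2r*, *Foxa2*, *Lif*, *Gzmb*, *Wnt7b*, *Trp63* and *Trp73* were named after their values were seen. The log2 ratio and its counting interval were tested on simulated counts that held counting error only, without variation between pools. Python 3.11.15, pandas 2.3.3 and numpy 2.4.6 were used. Summed counts were 78375043 in *Foxo1f/f* and 81773890 in *Foxo1d/d*.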

Additional observations from a re-analysis of the deposited data

How the results depend on the processing

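No paired analysis was possible because the deposited mean counts carry no replicate numbers, and for the same reason leaving out each library in turn was not run. The 3 lower members were also the ones found with centring on the median gene, scaling by the upper quartile, a pseudocount of 0.1, no filter on low counts and a mean count of at least 50, and each of their counting intervals lay past 1.5-fold.

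At 2-fold, 0 members were higher and 1 lower, *Hrk*, 4 other pathway genes were higher and 0 lower, and 0 p53 response genes were higher or lower, beside 1.99% higher and 1.40% lower of all genes. Where the higher genotype had to exceed the other by 25%, 3 members were higher and 5 lower, 13 other pathway genes higher and 2 lower, and 1 p53 response gene higher and 3 lower, beside 1968 and 1412 of all 15696 genes. With no filter on low counts, 1 member was higher, *Casp14* with 2 summed counts, and 3 lower, 11 other pathway genes were higher and 2 lower, and 1 p53 response gene was higher and 2 lower, beside 8.11% and 5.79%. With a mean count of at least 50, 6 other pathway genes were higher and 0 lower, beside 3.81% and 2.58%. With the counting interval past 1.5-fold, 5 were higher and 0 lower, beside 2.94% and 2.17%. These follow from the wider or narrower rule. Centred on the median gene, the members' median log2 ratio was -0.022, and scaled by the upper quartile -0.0045, both on the other side of 0. The shorter words TAAACA or AAAACA stood in promoters of 16 of the 42 members, 38.1%, of 10 of the 40 other pathway genes and 3 of the 12 p53 response genes, 25% of each, beside 34.3% of all 27025 genes.

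Of 660 values of 220 listed genes under other scalings or a pseudocount of 0.1, 642 stayed within their counting interval, and 0 called values changed sign. The remaining 18 belong to abundant genes with narrow intervals, none of them a member. Without single libraries, a difference between pools cannot be separated from one between genotypes, and genes with few counts, such as *Il1b*, have wide intervals.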

Other observations

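The Naip genes stand in a row on chromosome 13, and their log2 ratios differed along it. In RefSeq order, read after the data were seen, *Naip2* was at 0.30, *Naip5* at 0.86, *Naip6* at 1.54 and *Naip1* at 2.24. The genes on either side were nearer to 0, with *Smn1* at 0.14 next to *Naip2* and *Gtf2h2* at 0.08 next to *Naip1*. Mean counts went from 352 to 454 for *Naip2*, from 388 to 733 for *Naip5* and from 97.7 to 297 for *Naip6*. The cause was not tested, and reads shared among these paralogs limit each single value.

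Members of the gasdermin C group, cousins of *Gsdmd* on chromosome 15, had too few counts for the rule. *Gsdmc* summed to 1 count in the controls and 20 after deletion, a ratio of 19.2 with a counting interval from 3.27 to 112. *Gsdmc2* had 4 and 35 summed counts, a ratio of 8.39 with an interval from 3.11 to 22.6. They are near-identical copies that can share reads, and they were chosen after their values were seen.

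Among genes that clear dead cells, the bridging ligand *Gas6* averaged 8018 and 11435 counts, at a log2 ratio of 0.45, while its receptors *Axl*, *Tyro3* and *Mertk* were at -0.30, -0.28 and -0.17. These 4 genes were also chosen after their values were seen, and all were within 1.5-fold.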
